A study of Homo sapiens with 4 samples.

Results

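HL60 and KG1a, the pair of acute myeloid leukemia lines in this series that lack the MLL-AF9 fusion, were compared gene by gene. HL60 is a human line of myeloblasts and promyelocytes, the cells that make the first granules of a neutrophil, and KG1a is an immature line that carries CD34, the surface antigen of blood stem and progenitor cells. Of 21865 gene symbols, the 11835 with at least 1 RPKM in either line were kept and are called measured. RPKM is abundance per kilobase of gene, scaled to a library total, so levels can be set side by side between genes. At the edge of this rule, LOC728723 was kept with 1.001 RPKM in KG1a and ABHD6 was left out with 0.997 RPKM in HL60. No treatment is labelled for either line, and both were grown in RPMI/Opti-Media with 10% inactivated fetal bovine serum, penicillin, streptomycin and 5% CO2. That neither line carries MLL-AF9, and that THP-1 and MonoMac-1, the other lines of the series, do, is general knowledge and not in the labels. Because there is 1 library for each line, no difference has a replicate check and no test was made; the values describe these libraries. THP-1, whose sample title carries an unexplained suffix ("tr"), and MonoMac-1 serve to choose a set of genes set against HL60 and otherwise give levels for reference.

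Neutrophil granulocytes arise from CD34-bearing progenitors through a promyelocyte stage. The transcription factors PU.1 (gene SPI1) and C/EBP-alpha (CEBPA) open the myeloid program, GFI1 and C/EBP-epsilon (CEBPE) direct the granulocyte branch, and the azurophil granule proteins, myeloperoxidase and a family of serine proteases, are made mainly during the promyelocyte stage. Stem and progenitor cells instead express CD34, ERG, TAL1 and HOXA genes, and these are silenced as granulocytes mature. HL60 is also a textbook line for extra copies of MYC.

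The libraries held 8.72 gigabases on genes in HL60 and 10.2 in KG1a. At 1 RPKM or more stood 10569 genes in HL60 and 10944 in KG1a, of which 9678 were shared, 891 were found in HL60 alone and 1266 in KG1a alone. The leading transcripts were PRG2, MPO and RPS18 in HL60 (7020, 4610 and 4235 RPKM) and TPT1, RPS3 and GAPDH in KG1a (3012, 2891 and 2802 RPKM). Differences are given as HL60 minus KG1a on the scale log2(RPKM + 1), on which a value of 2 is a 4-fold change of the shifted levels; the pseudocount of 1 understates the change of weak genes. Counting error was small for most genes named here: with each 200 bases of coverage taken as 1 fragment, the exact Poisson 95% interval was 2.86 to 3.35 RPKM for MPO in KG1a and 12.4 to 13.6 RPKM for CD34 in HL60. Such intervals cover counting error only.

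A feature of the HL60 library bears on every gene that was high in KG1a. Among 63 genes with at least 20 RPKM in KG1a and under 0.5 in both THP-1 and MonoMac-1, HL60 held a median of 2.7% of the KG1a level, with quartiles of 2.53% and 3.25%, and 51 of the 63 lay within 1.5 times of that median. The reverse choice, genes of HL60 looked up in KG1a, gave 8 genes with quartiles of 0.309% and 46.6%, and none lay near 2.7%. THP-1 genes in HL60 (15 genes) had a median of 0.328%, and 2 of them lay near 2.7%. MonoMac-1 genes gave 0 near it among 6 in HL60 and 3 among 10 in KG1a. For KG1a genes looked up in THP-1 or in MonoMac-1, only 2 genes each were available. HL60 values between 1.8% and 4.05% of the KG1a level are therefore called near the share and may be KG1a material; whether they are was not tested. The main counts and some list medians are given as deposited and again after 2.7% of each gene's KG1a level was taken off HL60, never below 0. Several genes named below were among the 63 that set the share, including CD34, BAALC, HOPX, HOXB2, CD247, CD96, TOX, GFI1B and MYCN. That they lie near the share, with little left once it is taken off, follows in part from how it was set. The 51 are also part of the counts of genes near the share.

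**Figure D1:**
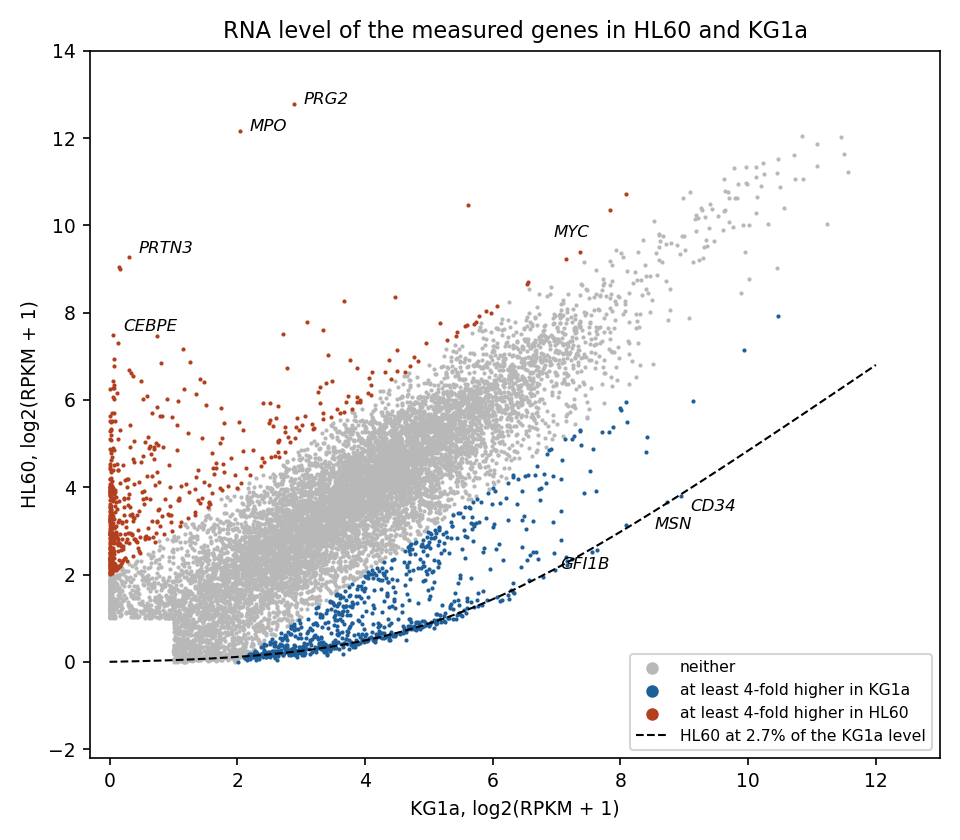
Levels of the measured genes in KG1a (horizontal) and HL60 (vertical), both as log2(RPKM + 1), 1 point per gene and 1 library per line; XIST and Y-linked genes are not drawn. Of the genes at least 4-fold higher in KG1a, 368 lie near the dashed line at 2.7% of the KG1a level, CD34 and MSN among them, and 22 lie below that range, whereas the genes higher in HL60 reach 0 in KG1a.

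At least 4-fold higher in HL60 were 532 measured genes, or 4.5%, and at least 4-fold higher in KG1a were 805, or 6.8%. These shares are the background for the counts given for each gene list below. After the share was taken off, the counts were 531 (4.49%) and 910 (7.69%), and the 531 and the 805 were contained in both readings. Within 2-fold lay 7822 genes (66.1%), and the median difference was -0.06, with quartiles of -0.77 and 0.56. At the edge of the 4-fold rule CERCAM (14.9 RPKM in HL60 and 2.97 in KG1a) was counted and STK33 (2.995 and 0) was not; on the other side TXNRD3 (1.358 and 8.44) was counted and TGS1 (9.38 and 40.4) was not. Taken over genes, which do not replicate each other, Pearson's r between the lines was 0.754 and Spearman's rho 0.754.

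The sets on the 2 sides had different shapes. The largest difference in favour of HL60 was 10.14 and the largest in favour of KG1a was -5.15. The log2 of the share is -5.21, but it is taken without the pseudocount and so is not on the same scale. Of the 805 KG1a-higher genes, 368 (45.7%) were near the share in HL60, 415 were above it and 22 below, 1 of these listed at 0. Of the 532 HL60-higher genes, 41 were listed at 0 in KG1a and 378 were under 1 RPKM there. In both of the monocytic lines, 80.6% of the HL60-higher genes and 52.0% of the KG1a-higher genes reached 1 RPKM, against 85.4% of all measured genes. Under 1 RPKM in both of those lines were 7.89% of the HL60-higher genes, 32.6% of the KG1a-higher genes and 7.85% of all.

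**Figure D2:**
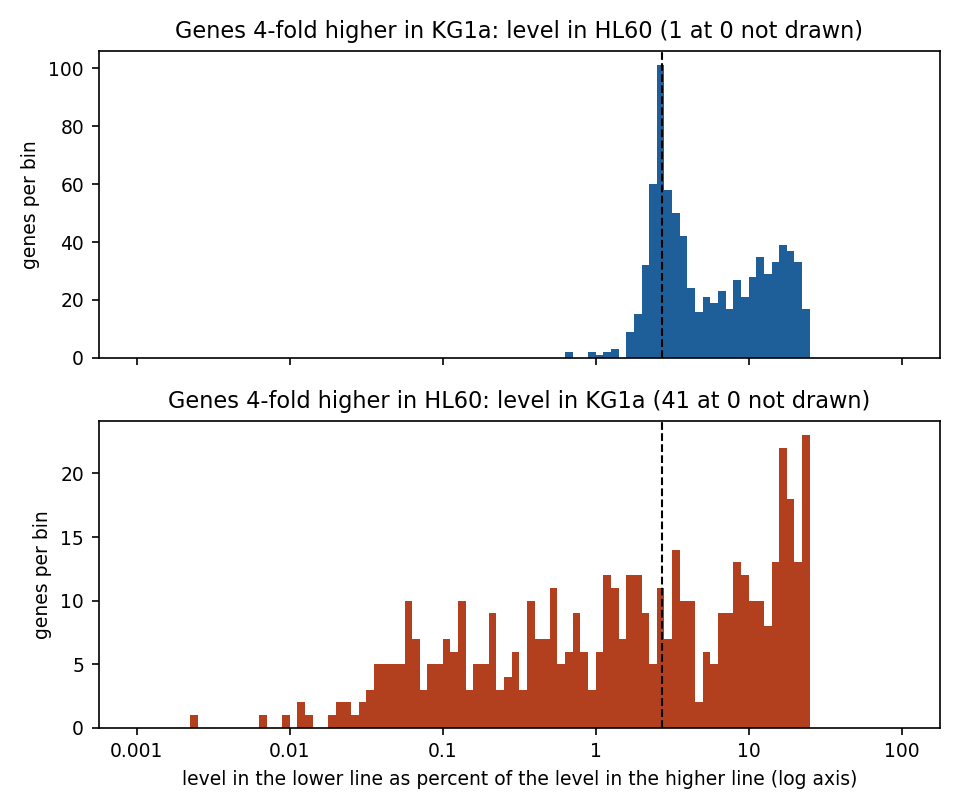
Number of genes (vertical, per bin) by the level in the lower line as a percent of the level in the higher line (horizontal, log axis), above for genes at least 4-fold higher in KG1a and below for those at least 4-fold higher in HL60; the dashed line marks 2.7%. The KG1a-higher genes pile up at the line with 368 near it, and the HL60-higher genes spread over the axis without such a peak.

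Of the 15 largest differences on the HL60 side, 4 were on the azurophil list: MPO, PRTN3, AZU1 and MS4A3. The last is a membrane protein of granulocyte precursors that the list includes. The promyelocyte markers MPO, ELANE, AZU1, PRTN3 and CTSG were all at least 4-fold higher in HL60. Of 14 measured genes on the azurophil list, 11 were at least 4-fold higher in HL60 and none in KG1a. The list median was 3.81 against -0.06 for all measured genes, of which 4.5% were at least 4-fold higher in HL60. MPO, myeloperoxidase, which makes hypochlorous acid from hydrogen peroxide, was at 4610 RPKM in HL60 and 3.097 in KG1a (THP-1 4.78, MonoMac-1 95.2), a difference of 10.14. HL60 thus held far more of it than any of the other 3 lines. The serine proteases of the same granule were ordered differently. PRTN3, proteinase 3, was at 615 RPKM in HL60 and 0.237 in KG1a (THP-1 1624, MonoMac-1 1558). ELANE, neutrophil elastase, was at 76.6 and 0.0355 RPKM, with 1042 and 1313 in the other lines. AZU1, the antimicrobial protein azurocidin, was at 175 and 0.678 RPKM, with 2033 and 1536. These 3 genes stand within 30 kilobases of each other on chromosome 19 (hg19, AZU1 at 827831-832017, PRTN3 at 840985-848175, ELANE at 852291-856246), and in all 3 the order of the lines was the same at the lower end, KG1a lowest and HL60 second lowest. The next gene, CFD, the complement protease factor D (859665-863610), was at 17.96 RPKM in HL60 and 1.55 in KG1a.

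The upstream bases of 3 genes of the azurophil list, and of CD34 for the KG1a side, are shown because these genes stand at opposite ends of the comparison. Each run is the 250 bases before the start on the gene's strand, 5′ to 3′, in RefSeq's GRCh38.p14 (the expression tables use hg19): PRTN3 at chr19:840749-840998 (plus strand), AZU1 at chr19:827587-827836 (plus), MS4A3 at chr11:60056415-60056664 (plus) and CD34 at chr1:207911126-207911375 (minus). Capitals mark every match, on either strand, to a PU.1 word (GAGGAAGT), a C/EBP word (TTNCGNAA or TTGCNNAA), a GATA word (AGATAA or TGATAA) or a MYB word (CAACTG).
PRTN3: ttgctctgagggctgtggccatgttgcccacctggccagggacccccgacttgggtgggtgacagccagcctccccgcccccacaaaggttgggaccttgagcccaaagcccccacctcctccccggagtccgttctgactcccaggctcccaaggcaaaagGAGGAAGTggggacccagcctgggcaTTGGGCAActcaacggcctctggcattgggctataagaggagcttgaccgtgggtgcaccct
AZU1: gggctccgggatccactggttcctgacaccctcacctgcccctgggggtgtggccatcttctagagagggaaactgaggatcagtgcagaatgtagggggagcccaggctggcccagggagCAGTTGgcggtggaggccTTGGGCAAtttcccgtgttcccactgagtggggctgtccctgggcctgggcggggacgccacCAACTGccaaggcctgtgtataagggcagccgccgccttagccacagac
MS4A3: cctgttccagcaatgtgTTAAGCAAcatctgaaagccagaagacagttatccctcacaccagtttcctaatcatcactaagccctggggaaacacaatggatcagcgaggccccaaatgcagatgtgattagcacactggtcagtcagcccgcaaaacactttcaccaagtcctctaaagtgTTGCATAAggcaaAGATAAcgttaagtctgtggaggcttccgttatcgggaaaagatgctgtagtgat
CD34: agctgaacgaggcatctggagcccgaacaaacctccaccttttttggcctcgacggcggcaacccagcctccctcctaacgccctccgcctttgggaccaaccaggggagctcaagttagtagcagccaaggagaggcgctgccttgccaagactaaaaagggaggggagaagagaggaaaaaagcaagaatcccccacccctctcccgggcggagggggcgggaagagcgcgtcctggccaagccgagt
The PRTN3 window held the PU.1 word starting 88 bases before the start and a C/EBP word at 62 bases. In AZU1 a C/EBP word began at 111 bases and MYB words at 129 and 49 bases. MS4A3 held C/EBP words at 233 and 68 bases and a GATA word at 55 bases; in the CD34 window these letters did not occur. Of all 35116 windows of the table, 2.17% held the PU.1 word, 10.4% a C/EBP word, 14.6% a GATA word and 8.996% the MYB word. A match is a run of letters and not a shown binding site.

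MS4A3, a membrane protein of granulocyte precursors, was at 109.5 RPKM in HL60 and 0.0443 in KG1a. SRGN, the proteoglycan that packs granule contents, was at 1408 and 47.9 RPKM, and CST7, a cystatin that inhibits granule proteases, at 308 and 11.7. CTSG, cathepsin G, was the azurophil serine protease best detected in KG1a, at 19.9 RPKM against 119.6 in HL60, a difference of 2.53. Of the 3 members in neither direction, DEFA4, a defensin, was at 2.75 RPKM in HL60 and listed at 0 in KG1a, a difference of 1.91. The other two were lower in HL60: CTSC, the peptidase that activates the granule proteases (34.2 and 112 RPKM, difference -1.68), and SERPINB1, their inhibitor (37.9 and 76.98). LYZ, lysozyme, was at 11.99 RPKM in HL60 and 1.13 in KG1a, both far under the 510.3 of THP-1 and the 4837 of MonoMac-1.

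Some eosinophil genes were also abundant in HL60, on a list that also held basophil and mast cell genes. FCER1A, MS4A2, KIT, SIGLEC8, CCR3 and PRG3 of that list were under 1 RPKM in both lines. Of 19 listed genes 11 were measured, 7 of them at least 4-fold higher in HL60 and 1 in KG1a, with a median of 2.26. The 1 RPKM filter keeps a gene through the line where it is high, and without the filter the median was 0.59. Of all measured genes, 4.5% and 6.8% met the 4-fold rule in these directions. PRG2, the major basic protein of eosinophil granules, was the most abundant transcript of HL60 at 7020 RPKM and stood at 6.38 in KG1a (THP-1 1.58, MonoMac-1 4.68), a difference of 9.89. CLC, the Charcot-Leyden crystal protein, was at 93.2 RPKM in HL60 and 0.286 in KG1a. EPX, eosinophil peroxidase, was at 38.5 and 0.119 RPKM. HDC, which makes histamine, was at 22.9 and 0.299 RPKM. None of these 4 genes exceeded 5 RPKM in THP-1 or MonoMac-1. RNASE2, an eosinophil ribonuclease, was at 96.9 RPKM in HL60 and 0.267 in KG1a (THP-1 511, MonoMac-1 608), so KG1a stood apart from the other 3. The tryptases TPSAB1 and TPSB2, near-identical copies whose reads may be shared, were at 1.26 and 1.58 RPKM in HL60 and 4.09 and 7.04 in KG1a. CPA3, the mast cell carboxypeptidase, was the member higher in KG1a, at 24.7 RPKM against 0.985 in HL60, which is near the share.

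Genes that follow the promyelocyte stage were mostly low in both lines. Only 9 of 24 late neutrophil genes were measured, so secondary granule genes such as LTF, LCN2 and CAMP were under 1 RPKM in both. Of the 9, 4 were at least 4-fold higher in HL60 and 1 in KG1a, against 4.5% and 6.8% of all measured genes. S100A9, a calcium-binding protein of neutrophils and monocytes, was at 15.2 RPKM in HL60 and 2.598 in KG1a, and S100A8, its partner, at 3.595 and 0.125; THP-1 held 314 and 111. CXCR2, a chemokine receptor, was at 5.71 and 0.642 RPKM and CHI3L1, a chitinase-like secreted protein, at 7.001 and 0.966. CEACAM1, an adhesion receptor, was at 4.34 RPKM in KG1a and near the share in HL60 (0.101).

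All 6 genes of the phagocyte NADPH oxidase, the enzyme that makes superoxide, were measured. At least 4-fold higher in HL60 were 2, against 4.5% of all measured genes. NCF4, the p40 subunit of the oxidase, was at 114 RPKM in HL60 and 0.748 in KG1a. NCF1, whose pseudogenes may share its reads, was at 4.58 and 0.0509 RPKM, and the membrane subunit CYBB at 5.96 and 0.961. The other membrane subunit, CYBA, did not follow: it was at 64.1 RPKM in HL60 and 66.1 in KG1a, while THP-1 held 456 and MonoMac-1 374.

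Monocyte and macrophage genes were sparse in both lines: 14 of 29 were measured. Among the 14, 5 were at least 4-fold higher in HL60 and 1 in KG1a, against 4.5% and 6.8% of all measured genes. CD14, CSF1R and IRF8, which define monocytes, were under 1 RPKM in both. CD33, the myeloid antigen, was at 59.5 RPKM in HL60 and 4.73 in KG1a, FCGR1A, the high-affinity IgG receptor, at 8.14 and 0.00395, and TLR4, the endotoxin receptor, at 6.13 and 0.00852. CD68 was at 4.34 and 0.596 RPKM, far under the 170 of THP-1 and the 219 of MonoMac-1. CTSB, cathepsin B, was the member higher in KG1a (6.799 and 30.6 RPKM).

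Transcription factors of myeloid fate split in the same direction as the granule genes. Of 21 measured factors, 8 were at least 4-fold higher in HL60, 2 in KG1a and 11 in neither. Over all measured genes the shares were 4.5% in HL60 and 6.8% in KG1a. CEBPE was at 178 RPKM in HL60 and 0.0409 in KG1a (THP-1 4.99, MonoMac-1 16.1), a difference of 7.43. SPI1, encoding PU.1, was at 117 and 1.41 RPKM, with 98.9 and 168 in the monocytic lines. CEBPA was at 105 and 13.7 RPKM, with 185 and 159. HL60 thus lay between the monocytic lines for SPI1 and below both for CEBPA, KG1a was lowest for both genes, and CEBPE was highest in HL60. GFI1, a repressor that favours granulocytes, was at 82.8 RPKM in HL60 and 9.44 in KG1a, and EGR1, an immediate early factor, at 41.8 and 1.08. NFE2 and MYB were 2.24 and 2.07 higher on the log2 scale. The opposite pair was GFI1B, a relative of GFI1 used in platelet and red cell precursors, at 124 RPKM in KG1a against 4.603 in HL60, and ID1, an inhibitor of basic helix-loop-helix factors, at 28.7 and 0.9099. Both HL60 values were near the share. RUNX1, CBFB, IKZF1, RARA and PML differed by less than 2-fold.

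**Figure D3:**
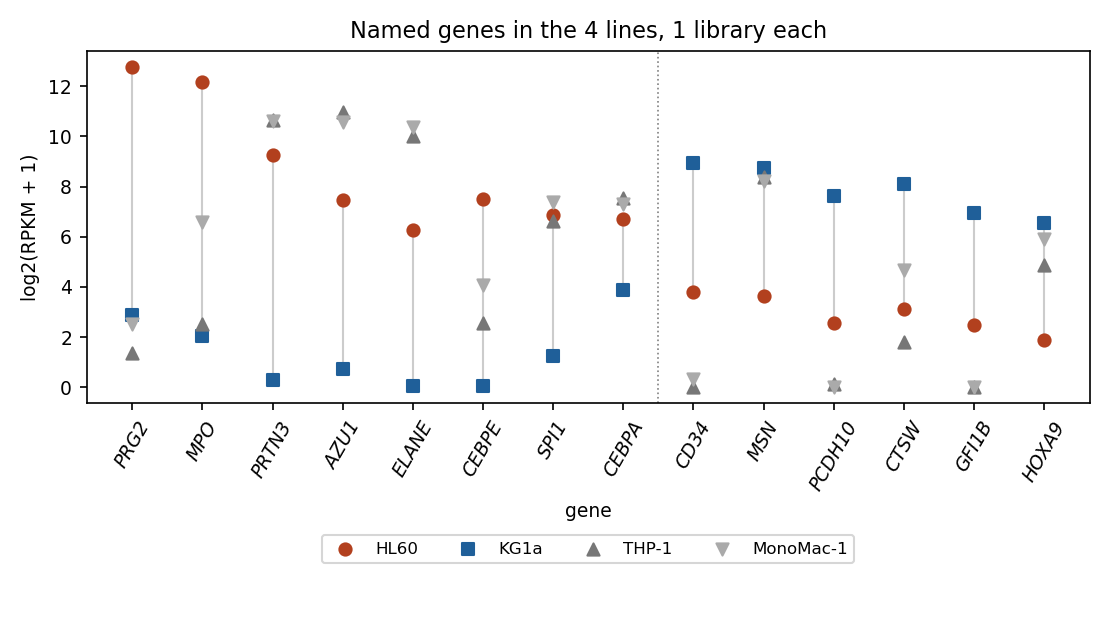
Levels as log2(RPKM + 1) (vertical) of 14 genes (horizontal) in the 4 lines, 1 library each; the dotted line parts genes higher in HL60 from genes higher in KG1a. PRG2 and MPO are highest in HL60, PRTN3, AZU1 and ELANE are highest in the monocytic lines with KG1a at the bottom, and MSN is low in HL60 alone.

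Among the lists, progenitor genes gave the most members on the KG1a side. Of 27 measured stem and progenitor genes, 19 were at least 4-fold higher in KG1a and 1 in HL60. Over all measured genes 6.8% and 4.5% were. The list median was -2.74 as deposited and -2.95 after the share was taken off. In 11 of the 19 the HL60 value was near the share. KG1a held 494 RPKM of CD34 and HL60 12.95, or 2.62% as much (THP-1 0.0205, MonoMac-1 0.253). Its difference was -5.15 as deposited, and no RPKM remained in HL60 once the share was taken off. CD34 was among the genes that set the share, so this remainder follows in part from that choice. ESAM, an adhesion molecule of endothelium and stem cells, was at 151 RPKM in KG1a and 4.13 in HL60. HOPX, a homeodomain-only protein, was at 142 and 3.92 RPKM, and BAALC, a gene known as a marker of immature leukemia, at 78.7 and 2.03. All these HL60 values lay near the share. NPDC1, DNMT3B, JAM3, SOCS2 and GPR56 were above it. The check of the progenitor label used CD34, BAALC, SPINK2 and CRHBP: SPINK2 was at 7.01 RPKM in KG1a against 0.459 in HL60, and CRHBP at 2.26 and 0.135, so both were weak in KG1a beside CD34. BEX1 was the member on the HL60 side, at 511 RPKM against 0.124 (THP-1 38.5, MonoMac-1 88.7). MEIS1, PROM1, KIT and CD38 were under 1 RPKM in both lines.

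The 7 factors that act together in blood stem cells did not move as a block. KG1a held 22.8 RPKM of ERG and HL60 1.19, and TAL1 was at 4.91 and 0.185 RPKM; these 2 were at least 4-fold higher in KG1a, TAL1 with an HL60 value near the share. FLI1 was at 121 and 33.3 RPKM, a difference of -1.83. GATA2 (48.2 and 32.6 RPKM) and LMO2 (34.8 and 46.8) were close, and LYL1 was higher in HL60 at 106 RPKM against 55.5.

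All 11 HOXA genes were measured, and the line with more RNA changed along the cluster. HOXA3, HOXA5, HOXA6, HOXA7 and HOXA9 were at least 4-fold higher in KG1a. HOXA9, a factor that sustains progenitors and many leukemias, was at 93.4 RPKM in KG1a and 2.65 in HL60 (THP-1 28.6, MonoMac-1 59.7), and its HL60 value was near the share. For HOXA7 the levels were 30.8 RPKM in KG1a against 5.44 in HL60, and for HOXA10 25.1 and 7.55, both above the share. At the other end of the cluster the direction turned: HOXA11 was at 5.65 RPKM in HL60 and 1.26 in KG1a, and HOXA13 at 3.85 and 0.00652. HL60 thus had HOXA10, HOXA11 and HOXA13 RNA with HOXA9 at 2.65 RPKM. HOXB2 was the only one of 10 HOXB genes measured, at 38.3 RPKM in KG1a against 1.02 in HL60, near the share; its difference was -4.28 as deposited and -5.30 after the share was taken off.

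KG1a also carried RNA of some genes of the T and natural killer lineage. Of 17 measured genes of 44, 11 were at least 4-fold higher in KG1a, 6 of them with HL60 near the share, and 1 was higher in HL60. Over all measured genes the shares were 6.8% in KG1a and 4.5% in HL60. The list median was -2.36 as deposited and -2.54 after the share was taken off. As the 1 RPKM filter keeps a gene through the line where it is high, these medians depend on it. Without the filter the median was -0.08. CD247, the zeta chain of the T cell receptor complex, was at 56.1 RPKM in KG1a and 1.46 in HL60. CD96, a receptor of T and natural killer cells, was at 52.98 and 1.69 RPKM. IL32, a cytokine of lymphocytes, was at 102 and 4.701 RPKM, and TOX, a factor of T cell development, at 40.5 and 1.31. Of the other T cell markers, CD3E was at 14.1 and 0.926 RPKM and CD3D at 10.6 and 1.88, but CD3G and CD2 were under 1 RPKM in both lines. CTSW, a protease of killer cells that was not on the list, was among the largest differences, at 271 RPKM in KG1a and 7.78 in HL60. On the HL60 side stood CD4, which monocytic cells also carry, at 79.8 RPKM against 0.0451, with 61.1 in THP-1.

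Few B lineage genes were measured (6 of 20), 4 of them at least 4-fold higher in HL60, against 4.5% of all measured genes. BTK, a kinase that myeloid cells share with B cells, was at 56.1 RPKM in HL60 and 0.681 in KG1a, and IGLL1, a surrogate light chain whose family has near copies, at 105 and 5.85. CD79A, a signalling chain of the B cell receptor, was at 6.36 and 0.48 RPKM, and CD79B, its partner, at 5.47 and 0.114. MS4A1 and PAX5 were under 1 RPKM in both. BANK1, an adaptor of B cell signalling, was higher in KG1a at 74.4 RPKM against 8.48, above the share.

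Some red cell and platelet genes were higher in KG1a. Of 12 measured, 4 were at least 4-fold higher in KG1a (5 after the share was taken off) and 1 in HL60. Over all measured genes the shares were 6.8% (7.69% after the share was taken off) and 4.5%. By any margin 7 of the 12 were lower in HL60 and 5 higher, while 52.7% of all measured genes were lower. The list median was -1.79, and 0.00 without the 1 RPKM filter. ITGA2B, the platelet integrin chain, was at 90.3 RPKM in KG1a and 7.26 in HL60, while ITGB3, SELP and GP9 had HL60 values near the share. RHAG, a membrane protein of red cells that was among the 15 largest differences, was at 109 RPKM in KG1a against 2.84 in HL60, and was listed at 0 in the other lines. TFRC, the transferrin receptor, was higher in HL60, at 243 RPKM against 54. The defining red cell genes KLF1 and ALAS2 were under 1 RPKM in both, and so were the tissue markers COL1A1, COL3A1, EPCAM and KRT5.

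**Figure D4:**
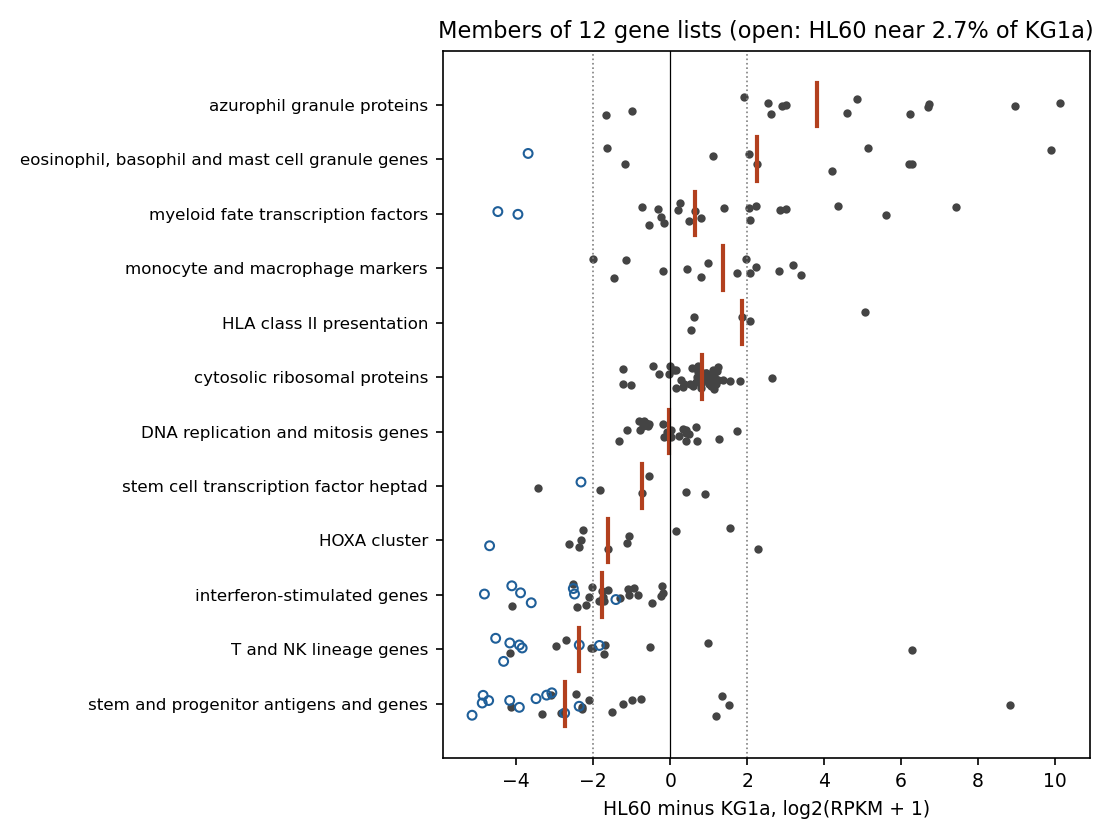
Difference HL60 minus KG1a on the log2(RPKM + 1) scale (horizontal) for every measured member of 12 gene lists (vertical); red bars are medians, dotted lines the 4-fold rule, open circles members whose HL60 level is near 2.7% of KG1a. Azurophil genes centre on 3.81 and stem and progenitor genes on -2.74, where open circles crowd the left edge.

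Every one of 27 measured interferon-stimulated genes was lower in HL60, by some margin, and 12 were at least 4-fold lower, 6 of them near the share; their median was -1.76 as deposited and -1.90 after the share was taken off. Of all measured genes, 52.7% were lower in HL60 and 6.8% at least 4-fold lower. RSAD2, the antiviral enzyme viperin, was at 75.4 RPKM in KG1a and 1.69 in HL60 (THP-1 1.71, MonoMac-1 0.5203). IFITM3, which blocks virus entry, was at 97.9 and 4.71 RPKM, and IFI44 at 29.5 and 0.756. OAS3, an enzyme that activates RNase L, was at 25.1 and 0.764 RPKM. IRF9, a factor of the interferon response, had 17.1 RPKM in KG1a and 2.99 in HL60, above the share, as did BST2, which tethers virus particles (235 and 40.3). The receptor chains IFNAR1, IFNAR2, IFNGR1 and IFNGR2 differed by less than 2-fold, with differences of 0.40, -0.10, 0.36 and 0.60.

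Genes of HLA class I presentation were mostly close, with a median of -0.31 over 16 genes. HLA-B was at 369 RPKM in HL60 and 336 in KG1a, and HLA-C at 185 and 182; these genes are near copies with many alleles, and the authors' counting may split their reads. TAP1, a chain of the peptide transporter, was -1.79 and PSMB9, an immunoproteasome subunit, -1.53 on the log2 scale. Of 15 class II genes 5 were measured. CD74, the invariant chain, was at 88.8 RPKM in HL60 and 1.67 in KG1a, but HLA-DRA was at 1.28 and 0.494 RPKM, against 429.8 in MonoMac-1.

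Among 22 measured cytokine receptor chains, 3 were at least 4-fold higher in HL60 and 5 in KG1a. Over all measured genes the shares were 4.5% and 6.8%. TNFRSF1B, a receptor of tumour necrosis factor, was at 20.02 RPKM in HL60 and 0.0401 in KG1a. CSF2RB, the beta chain shared by the receptors of interleukin 3, interleukin 5 and GM-CSF, was at 16.4 and 0.7096 RPKM, and IL5RA, the eosinophil chain that pairs with it, at 3.18 and 0.0113, with 0 in the other lines. IL27RA was at 50.2 RPKM in KG1a and 7.299 in HL60, IL6R at 62.8 and 11.2, and IL12RB1 at 13.4 with an HL60 value near the share. Receptor tyrosine kinases were weak, with 15 of 43 measured. By the 4-fold rule 1 was higher in HL60 and 3 in KG1a, beside the same 4.5% and 6.8%. Those 3, TIE1, FLT1 and MERTK, were near the share in HL60. IGF1R, the insulin-like growth factor receptor, was at 11.5 RPKM in HL60 and 1.66 in KG1a. RET, the receptor named in the series title, was at 2.74 RPKM in HL60 and 0.0175 in KG1a (THP-1 47.8, MonoMac-1 14.6). FLT3 was at 1.695 RPKM in HL60 and 0.0597 in KG1a, and KIT was under 1 RPKM in both.

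Adhesion genes differed member by member. At least 4-fold higher in HL60 were 3 of 26, and in KG1a 5, against 4.5% and 6.8% of all measured genes. ITGAX, EMR1 and PECAM1 were the HL60 members, at 5.69, 3.804 and 3.26 RPKM against 0.348, 0.04797 and 0.00688. CD44, the hyaluronan receptor, was at 255 RPKM in KG1a against 55.3 in HL60, and EMR2 at 42.5 and 6.14. MSN, moesin, which ties CD44 and other membrane proteins to actin, was the second largest difference on the KG1a side. Its level was 424 RPKM in KG1a (THP-1 334, MonoMac-1 297) but 11.6 in HL60, 2.73% of KG1a, so HL60 was the line that stood apart. PCDH10, a protocadherin, was at 198 RPKM in KG1a against 4.93 in HL60, and under 0.1 in the other lines.

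The remaining genes among the 15 largest differences on each side belong to no single group. On the HL60 side stood DYSFIP1 at 529.9 RPKM against 0.112 in KG1a, GTSF1, a germ cell factor of small RNA silencing, at 156 against 0.0993, and IMPA2, an inositol phosphatase, at 122 against 0.0478. ASS1, which makes the precursor of arginine, was at 85.6 and 0.0388 RPKM, CCL5, a chemokine, at 102 and 0.2401, and GAL, the neuropeptide galanin, at 75.3 RPKM with KG1a listed at 0. Each of these 6 genes exceeded 10 RPKM in both monocytic lines, so KG1a was the low line. On the KG1a side were C19orf77, KIAA0125, TSPAN13, SLITRK5, STAB1, a scavenger receptor, and MMRN1, a platelet and endothelial protein, with 188, 143, 141, 69.8, 125 and 79.4 RPKM in KG1a. Their HL60 values, 1.68 to 4.71 RPKM, were all near the share. After the share was taken off, the same 15 genes led except that HOXA9 replaced SLITRK5.

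Neighbouring genes at or under the share range describe it further. Of 8231 genes with at least 5 RPKM in KG1a, 314 lay at or under 4.05% of the KG1a level in HL60, and 10 runs of 3 such genes stood side by side on a chromosome among genes of that level. One run was OAS1, OAS3 and OAS2 on chromosome 12 (113344739-113449528, hg19), with HL60 at 2.57% to 3.61% of KG1a. A second was TTLL10, TNFRSF18 and TNFRSF4 on chromosome 1 (1109286-1149548), the last 2 being receptors that costimulate T cells, with HL60 at 2.26% to 2.68%. CLEC2B, CLEC9A and KLRK1, lectin-like receptors of lymphoid and dendritic cells on chromosome 12, formed one more, at 47.2, 41.8 and 37.1 RPKM in KG1a and 1.76, 0.958 and 0.888 in HL60.

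Of 25 replication and mitosis genes, none reached a 4-fold difference, against 4.5% and 6.8% of all measured genes in the 2 directions, and their median was -0.03. MCM7, a subunit of the replicative helicase, differed most, at 232 RPKM in HL60 and 69.5 in KG1a, and CCNB1, the mitotic cyclin, most in the other direction, at 30.3 and 77.9. Of 21 G1 genes, 1 was at least 4-fold higher in HL60 and 2 in KG1a, beside the same 4.5% and 6.8%. They were CCND1 in HL60 (12.2 and 0.443 RPKM), and CDK6 (17.1 and 82.99) and CCNE2 (5.28 and 30.3) in KG1a. On the short arm of chromosome 9, CDKN2A was at 3.28 and 4.31 RPKM and MTAP at 14.4 and 7.81, both listed at 0 in THP-1.

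MYC was at 596 RPKM in HL60 and 141 in KG1a (THP-1 113, MonoMac-1 137), a difference of 2.07. The other 3 lines lay within a narrow range and HL60 above it. MYCN, a relative of MYC, was at 33.1 RPKM in KG1a, near the share in HL60 (0.892) and under 0.1 in the other lines. MGA, a repressor of the MYC network, was at 14.1 RPKM in HL60 and 0.459 in KG1a, with 15.3 and 10.9 in the other lines, so here KG1a stood apart. MAX, the partner of MYC, was at 21.1 RPKM in HL60 and 54.7 in KG1a.

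MYC stands on chromosome 8, and that chromosome differed most between the lines as a whole. Its 395 measured genes had a median difference of -1.29 (quartiles -1.78 and -0.77; median -1.38 after the share was taken off), and 351 of them (88.9%) were lower in HL60 by some margin, against 52.7% of all measured genes. The median level of these genes was 5.18 RPKM in HL60 and 14.4 in KG1a (THP-1 12.8, MonoMac-1 13.4), so HL60 stood apart from the other 3 lines. Against THP-1 and MonoMac-1, in comparisons that share the HL60 library, the medians were -1.04 and -1.15. The remaining autosomes and X had medians between -0.59 (chromosome 14) and 0.30 (chromosome 12). At least 4-fold higher in KG1a were 69 chromosome 8 genes (17.5%, against 6.8% of all). At least 4-fold higher in HL60 were 16 (4.05%), close to the 4.5% of all measured genes. Counted over windows of 10 megabases with at least 15 measured genes, 17 of 252 windows had a median of -1 or less, and 9 of these were among the 13 on chromosome 8, where the windows ran from -1.59 to -0.38.

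Near MYC stood genes of both directions; those named here were chosen after their values were seen. In the window at 120 to 130 megabases, 21 of 26 genes were lower in HL60. MYC was among the 16 chromosome 8 genes at least 4-fold higher in HL60, and so was ZHX2, a zinc finger and homeobox factor, at 4.26 RPKM against 0.0113 in KG1a. TRIB1, a pseudokinase that brings C/EBP-alpha to degradation, was at 74.3 RPKM in HL60 and 19.7 in KG1a (THP-1 1.26, MonoMac-1 8.22), a difference of 1.86, short of the 4-fold rule. Lower in HL60 were others: SQLE, a cholesterol synthesis enzyme, was at 55.6 RPKM in HL60 and 156 in KG1a, NSMCE2 at 9.96 and 29.5, and FAM49B at 26.1 and 61. PVT1, the long noncoding RNA next to MYC, was at 2.44 and 4.94 RPKM.

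**Figure D5:**
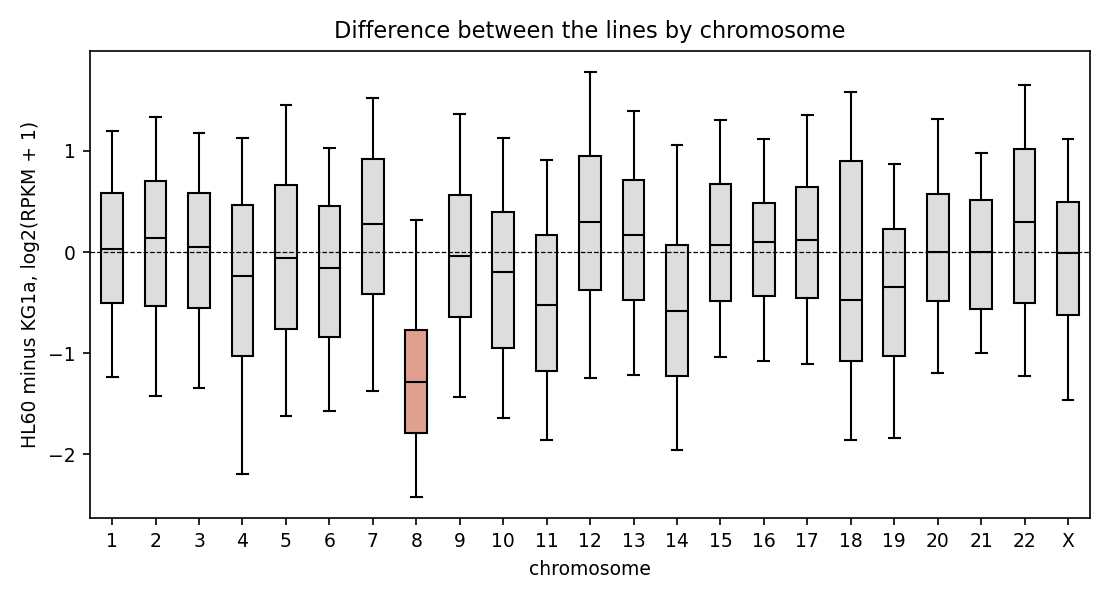
Difference HL60 minus KG1a on the log2(RPKM + 1) scale (vertical) for the measured genes of each chromosome (horizontal); boxes span the quartiles with the median as a line, and whiskers the 10th to 90th percentile. The box of chromosome 8, with a median of -1.29, lies wholly below 0.

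Outside chromosome 8, 8 windows had a median of -1 or less. On chromosome 19 the window at 20 to 30 megabases had the lowest median of all, -1.62 over 28 genes, with median levels of 0.763 RPKM in HL60 and 5.57 in KG1a (THP-1 1.84, MonoMac-1 0.495), so in that window KG1a was high and HL60 lay between the monocytic lines. Chromosome 14 had -1.33 at 60 to 70 and -1.23 at 70 to 80 megabases (43 and 65 genes), and chromosome 10 had -1.05 at 20 to 30 and -1.04 at 30 to 40 megabases (24 and 20 genes). The other 3 were at 70 to 80 megabases of chromosome 4 (-1.29, 33 genes), 80 to 90 of chromosome 7 (-1.24, 15 genes) and 50 to 60 of chromosome 18 (-1.06, 16 genes). A median of 1 or more was found in 3 windows: those at 0 to 10 and 10 to 20 megabases of chromosome 18 (1.04 and 1.21, 29 and 22 genes) and that at 150 to 160 megabases of chromosome 5 (1.10, 32 genes).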

How the data were processed

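RNA was sequenced from 4 cell lines, 1 library each; TRIzol extraction and standard Illumina library steps are given per the labels' protocols. CASAVA 1.8.2 and the hg19 build come from the submitters' processing notes. The choice of aligner, annotation, strand setting and filters is not given in the sources used here. For each gene the authors deposited an RPKM value and a whole-number coverage signal without a stated unit, read here from its values as bases on the gene. Neither is a read count, so no count model was used, and reads of overlapping genes and near copies may be shared.

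Where a symbol had several entries (28 symbols), that of the highest mean RPKM was kept. Differences were taken on log2(RPKM + 1), over genes at 1 RPKM or more in either line, with a 4-fold rule and no test. The share of the KG1a level in HL60 was the median ratio over the genes described in the text. Genes named are the 15 largest differences in each direction, up to 4 members a direction of 31 gene lists, fixed genes of interest and the 3 leading transcripts of each line; XIST and Y-linked genes are left out. Genes named outside this rule are other members of the lists, or members of a run of neighbours, chosen after their values were seen. The genes and lists were chosen with earlier results of these data known. Of the measured genes 9371 (79.2%) matched an upstream window of the RefSeq table, under the 80% needed, so shares of motifs by gene group are void and not given; MPO, ELANE and PRG2 had no entry. Python 3.11.15, pandas 2.3.3, numpy 2.4.6, scipy 1.17.1 and matplotlib 3.10.9 were used. Other pseudocounts, filters, scalings and thresholds were tried. Some genes of the lists are not reported here.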

Additional observations from a re-analysis of the deposited data

How the results depend on the processing

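With 1 library per line, neither direction nor size of a difference can be set against the spread between cultures. HL60 values near the share of the KG1a level may be KG1a material, which was not tested. With a pseudocount of 0.1 the 4-fold counts were 911 genes higher in HL60 and 1419 higher in KG1a, and at an 8-fold threshold 228 and 280. Under the other settings (a 5 RPKM filter, no filter, median-of-ratios scaling, quantile normalization, the share taken off, the first listed entry of duplicated symbols) the counts lay within 1.5 times of 532 and 805. The share was 2.56% by the peak of the ratios and 2.71% with a 50 RPKM minimum in KG1a or under 0.1 RPKM in the other lines, and 429 KG1a-higher genes lay within 2 times of it. Median-of-ratios scaling shifted HL60 by 0.03 on the log2 scale. No filter adds symbols under 1 RPKM in both lines. With it the chromosome 8 median went from -1.29 to -0.25, HOXB from -4.28 to 0.00 and erythroid and megakaryocyte genes from -1.79 to 0.00. T and NK genes went from -2.36 to -0.08, late neutrophil genes from 1.86 to 0.05 and B lineage genes from 2.43 to 0.06. The list of eosinophil, basophil and mast cell genes went from 2.26 to 0.59, and monocyte and macrophage genes from 1.36 to 0.08. By over 1.5-fold moved 10 list medians with no filter, 13 with the pseudocount of 0.1, 6 with the 5 RPKM filter, 1 with quantile normalization and 1 (HOXB) with the share off; so did 15 of 35 genes of interest with the pseudocount of 0.1 and 15 with the share off. List medians changed sign in 3 cases: receptor tyrosine kinases from 0.47 to -0.16 and drug efflux ABC transporters from -0.45 to 0.06 with the 5 RPKM filter, and reference genes from 0.23 to -0.10 with quantile normalization. No paired analysis was possible because each line has 1 library and no test was made.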

Other observations

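Genes of fetal growth control and of chromatin separated the lines by single members. IGF2BP1, an RNA-binding protein of fetal tissue, was at 35.5 RPKM in HL60 and 0.0112 in KG1a, and LIN28B, which blocks maturation of let-7 microRNAs, at 10.9 and 0.00595; both were under 0.1 RPKM in THP-1 and MonoMac-1. IGF2BP3 was at 20.6 and 3.41 RPKM. HMGA2, a chromatin protein and known let-7 target, was at 33.3 RPKM in HL60 and 10.8 in KG1a, and under 0.1 in the other lines. DNMT3B, a DNA methyltransferase, was at 4.75 and 56.4 RPKM, and BMI1, a Polycomb protein of stem cells, at 11.2 and 81.98, both higher in KG1a and above the share. EZH2, the Polycomb methyltransferase, leaned to HL60, at 48.2 RPKM against 13.33.

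Cytosolic ribosomal protein genes were higher in HL60 in 43 of 50 cases, with a median of 0.82 (0.21 with quantile normalization), although only RPS14 reached 4-fold (1695 and 272 RPKM). Of all 11835 measured genes, 5599 were higher in HL60 by some margin, and their median was -0.06 over the whole set. RPS20, RPL30, RPL7 and RPL8, which lie on chromosome 8, were among the 7 lower in HL60; reads of ribosomal genes may be shared with their processed copies. Of 14 BCL2 family genes, BIK was at least 4-fold higher in HL60 (7.47 and 0.199 RPKM), while BCL2L1 was at 8.88 and 33.9 RPKM and BCL2 at 6.7 and 11.1. Of genes that handle cytarabine, SAMHD1, which destroys its active form, was at 8.41 RPKM in HL60, 0.671 in KG1a and 107 in THP-1, and DCK, which activates the drug, was at 13.2 and 29.99 RPKM. ABCB1, the P-glycoprotein efflux pump, was at 20.02 RPKM in KG1a and near the share in HL60 (0.419), and was under 0.1 in the other lines.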
